A study of Mus musculus with 42 samples.

Results

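The 9 genes described here, Zbtb16, Pik3ip1, Hif3a, Per1, Ddit4, Tsc22d3, Fkbp5, Sgk1 and Errfi1, are known targets of glucocorticoid hormones in one or more tissues. They were picked because earlier results of these data showed them high in microglia of germ-free mice and lower again under acetate, so their contrasts of germ-free with colonised mice, and of acetate with germ-free, are given as a description, and no member's p-value is printed for them. All 9 have a row in both deposited tables, of 53546 genes for cortex and hippocampus and of 24421 for whole brain. The name holds only in part. Zbtb16, Pik3ip1, Hif3a, Per1, Ddit4, Tsc22d3 and Fkbp5 had the named pattern in cortex and hippocampus, Sgk1 had it in 5xFAD hippocampus, while its groups overlapped in wild-type cortex and hippocampus, and it was also higher germ-free in whole brain; the difference between genotypes did not pass the interaction test given below. Errfi1 had the pattern in no tissue.

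Glucocorticoids (corticosterone in mice) enter the cell and bind the glucocorticoid receptor, Nr3c1, which is held ready by Hsp90 and its helper proteins. The loaded receptor moves to the nucleus and binds DNA, often at a palindrome of paired arms, and raises genes that end the signal (Fkbp5), damp inflammation (Tsc22d3), set the clock (Per1) or slow growth signalling through PI3K and mTORC1 (Ddit4, Pik3ip1). Microglia, the resident macrophages of the brain, carry much of this receptor. Several of these genes also answer to other signals, among them hypoxia, growth factors and time of day.

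The 42 bulk RNA-seq libraries, in 11 groups, are of microglia from the brains of C57BL/6 mice, enriched on a density gradient and gated on CD11b+ CD45lo by flow sorting. Mice were kept specific-pathogen-free (SPF) or germ-free (GF), and further germ-free mice received acetate, a short-chain fatty acid that gut bacteria make, by the drinking water (here the acetate groups). Whole-brain libraries come from wild-type SPF (n = 3) and GF (n = 5) mice of 6 to 12 weeks. In cortex there are 4 wild-type mice each of SPF, GF and acetate, and hippocampus holds wild-type SPF (n = 4), GF (n = 3) and acetate (n = 4) and 5xFAD SPF (n = 4), GF (n = 3) and acetate (n = 4), all aged 16 weeks. Acetate lasted 8 weeks in wild-type and 5xFAD germ-free mice per the labels, which also name a germ-free group treated for 4 weeks that they do not tie to a library. 5xFAD mice carry human transgenes with familial Alzheimer mutations under the neuronal Thy1 promoter, so their microglia meet amyloid made by neurons. The hour of sampling, on which corticosterone and Per1 depend, is not given in the sources used here.

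Levels are CPM, a gene's counts per M (mega) of its library's total counts. Totals were 19.33 to 25.37 M counts in whole brain, 15.79 to 23.86 M in cortex and 5.74 to 22.53 M in hippocampus, where wild-type SPF4 and 5xFAD SPF2142 were the shallow ones. Microglial markers summed to between 37252 and 76132 CPM in every library. The highest sums were 4.00 CPM for pericyte, 2.25 CPM for T and NK cell and 7.80 CPM for neuron markers. Monocyte markers reached 33.8 CPM, border macrophage markers 34.9 CPM and endothelial markers 57.3 CPM. Erythroid markers reached 70.2 CPM and neutrophil markers 262 CPM (5xFAD SPF2153). Oligodendrocyte markers summed to 135 to 199 CPM, astrocyte markers to 192 to 497 CPM and B cell markers to 22.4 to 85.4 CPM. Values within a group are listed by animal: SPF1 to SPF4; GF528, GF529, GF530 and GF532 (the first only in cortex); GFA518, GFA523, GFA524 and GFA525; and in 5xFAD SPF2140, SPF2142, SPF2152 and SPF2153, GF526, GF527 and GF531, and GFA519 to GFA522. Whole-brain mice, SPF1, SPF3, SPF4 and GF1 to GF5, are other animals, and that table is compared only within itself. In bulk RNA, fewer cells of a type and less RNA per cell cannot be told apart. The microglial sum also differed between groups, and its bearing on the members was not tested. In wild-type hippocampus it was 49060 to 53431 in SPF, 42723 to 43843 in GF and 51577 to 52181 CPM in acetate mice. Cortex GF (43200 to 48301 CPM) overlapped SPF (47571 to 57079) and lay below acetate (51158 to 55001). 5xFAD GF (39993 to 40598 CPM) lay within the SPF range and below acetate (43057 to 44980). In whole brain SPF had 74780 to 76132 and GF 71929 to 73557 CPM.

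The promoters of 8 of the 9 genes, in 17 windows, were read from RefSeq (GRCm38.p6) as the 250 bases before each annotated start; Zbtb16 had no entry. They are shown for Sgk1, Tsc22d3 and Fkbp5 because these stand for the cases seen: the whole receptor palindrome, a single arm, and neither, 5′ to 3′ on the gene's strand, with capitals marking the whole element in Sgk1 and the arm in Tsc22d3; a further arm near the 5′ end of the Sgk1 window is left in lower case. The Sgk1 window is chr10:21993640-21993889 on the + strand, the Tsc22d3 window is chrX:140600523-140600772 on the - strand, and the Fkbp5 window is chr17:28486150-28486399 on the - strand.
Sgk1: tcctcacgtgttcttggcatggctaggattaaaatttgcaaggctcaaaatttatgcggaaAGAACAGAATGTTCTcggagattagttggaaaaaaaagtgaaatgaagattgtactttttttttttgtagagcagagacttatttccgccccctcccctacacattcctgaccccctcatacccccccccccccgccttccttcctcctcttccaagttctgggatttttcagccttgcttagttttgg
Tsc22d3: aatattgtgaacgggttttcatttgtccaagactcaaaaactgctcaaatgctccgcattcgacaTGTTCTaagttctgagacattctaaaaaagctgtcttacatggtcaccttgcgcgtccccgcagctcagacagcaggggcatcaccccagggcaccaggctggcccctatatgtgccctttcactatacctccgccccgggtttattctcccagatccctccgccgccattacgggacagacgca
Fkbp5: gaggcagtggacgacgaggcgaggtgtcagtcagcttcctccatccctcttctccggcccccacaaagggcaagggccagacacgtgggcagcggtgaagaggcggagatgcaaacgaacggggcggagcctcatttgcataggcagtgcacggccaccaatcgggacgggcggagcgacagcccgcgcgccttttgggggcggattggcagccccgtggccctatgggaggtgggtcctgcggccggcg

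The element searched was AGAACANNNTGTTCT, which reads alike on both strands, and its arms AGAACA and TGTTCT, which are each other's reverse complement and lie inside it. The Sgk1 window holds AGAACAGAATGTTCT, with 0 mismatches over the 12 fixed bases, ending 174 bases before the start. Of 32851 promoter windows, 3 (0.00913%) hold an exact match and 511 (1.56%) hold one with at most 2 mismatches; the latter is met by 2 of the 17 windows, both of Sgk1. At least 1 arm, arms of a whole element included, is found in 4 of the 17 windows (23.5%), against 16.1% of all windows. Each of these 4 windows belongs to Sgk1 or Tsc22d3, most of them to Sgk1, which also has the most windows. The windows of the other genes hold no arm, nor do the other windows of Tsc22d3. All matches are of letters only, and the windows do not cover introns or distant enhancers.

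Fkbp5, a co-chaperone that binds the receptor complex and lowers its affinity for hormone, had germ-free levels clear of every SPF and acetate library of cortex and hippocampus, as did Per1. It lies on chromosome 17 (28399094 to 28517527, GRCm38, GENCODE M21 matched by symbol, as for all positions below). In cortex its level was 128, 216, 416 and 137 CPM in SPF, 909, 999, 799.5 and 604 CPM in GF and 266, 131, 104 and 102 CPM in acetate mice. Wild-type hippocampus had 106, 191, 349.6 and 106 CPM in SPF, 862, 702 and 566 CPM in GF and 333, 107, 83.5 and 71.5 CPM in acetate mice. In 5xFAD hippocampus it was 154, 301, 123 and 99.2 CPM in SPF, 789, 986 and 1098 CPM in GF and 179, 298, 330.2 and 108 CPM in acetate mice. The lowest germ-free library (GF532 in hippocampus) was above the highest of the others (SPF3 in cortex), while SPF and acetate ranges overlapped in each tissue. In whole brain Fkbp5 was 76.5, 72.7 and 71.6 CPM in SPF and 134, 99.9, 126, 154 and 215 CPM in GF, again without overlap and with a wider spread germ-free. The fitted ratio of GF to SPF was 2.003-fold in whole brain, 3.53-fold in cortex, 3.55-fold in wild-type and 5.47-fold in 5xFAD hippocampus.

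Tsc22d3 encodes GILZ, a leucine zipper protein that carries part of the anti-inflammatory action of glucocorticoids (chromosome X, 140539528 to 140600659). Its cortical level was 69.9, 108, 192 and 102 CPM in SPF, 379.7, 666, 430.5 and 371 CPM in GF and 464, 82.8, 104 and 60.7 CPM in acetate mice. In wild-type hippocampus it was 74.2, 152, 233 and 127 CPM in SPF, 651, 427 and 286 CPM in GF and 313, 93.6, 99.4 and 79.9 CPM in acetate mice. GF and SPF did not overlap in either region, but one acetate animal, GFA518, lay inside the germ-free range in both. In 5xFAD hippocampus Tsc22d3 was 101, 152, 70.6 and 49.1 CPM in SPF, 342, 393 and 511 CPM in GF and 59.9, 109.6, 128 and 35.8 CPM in acetate mice, with every acetate library below every germ-free one. Whole brain had 86.8, 109.99 and 113 CPM in SPF and 333, 248, 254, 252 and 279 CPM in GF, which did not overlap. GF exceeded SPF 2.68-fold in whole brain, 3.75-fold in cortex, 2.93-fold in wild-type and 4.32-fold in 5xFAD hippocampus.

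Zbtb16, a zinc-finger repressor that glucocorticoids raise in many cell types (chromosome 9, 48654297 to 48836222), was near 0 in wild-type SPF libraries and measurable in every wild-type germ-free library of both regions. In cortex its level was 0, 0, 0.343 and 0.0624 CPM in SPF (0, 0, 7 and 1 counts), 17.8, 42.6, 15.4 and 8.43 CPM in GF and 1.53, 0.09305, 0.04701 and 0 CPM in acetate mice. Wild-type hippocampus had 0, 0, 0.271 and 0 CPM in SPF, 60.8, 25.8 and 13.1 CPM in GF and 7.54, 1.15, 0 and 0.199 CPM in acetate mice. Germ-free libraries were apart from both other groups, and the single SPF library with more than 1 count in either region was SPF3. In 5xFAD hippocampus Zbtb16 was 2.92, 11.3, 1.63 and 1.49 CPM in SPF, 98.6, 162 and 206 CPM in GF and 5.92, 19.3, 14.5 and 4.85 CPM in acetate mice. All 3 5xFAD germ-free libraries were above all wild-type germ-free ones, and all 4 5xFAD SPF libraries were above all wild-type SPF ones. In whole brain it had 0, 1 and 0 counts in SPF and 7, 7, 12, 0 and 12 counts in GF, too few to be tested. Fitted folds against such low groups rest on few counts; where both groups had signal, 5xFAD GF exceeded 5xFAD SPF 40.1-fold and exceeded 5xFAD acetate 13.3-fold. A library at 0 counts allows up to 3 counts, and this covers counting error only.

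Per1, a repressor of the circadian clock that glucocorticoids also induce directly (chromosome 11, 69095217 to 69109960), had the same order. In cortex it was at 18.1, 24.5, 47.4 and 23.1 CPM in SPF, 65.4, 99.2, 55.9 and 54.7 CPM in GF and 40.1, 12.05, 12.6 and 9.66 CPM in acetate mice. In wild-type hippocampus it was at 22.8, 21.7, 39.4 and 12.6 CPM in SPF, 127, 107 and 68.7 CPM in GF and 40.2, 10.1, 10.05 and 16.7 CPM in acetate mice. In 5xFAD hippocampus it was at 26.2, 25.2, 18.5 and 16.8 CPM in SPF, 99.7, 86.6 and 106 CPM in GF and 29.9, 34.02, 48.5 and 10.99 CPM in acetate mice. Over cortex and hippocampus together the 10 germ-free libraries (54.7 to 127 CPM) did not overlap the 12 SPF (12.6 to 47.4 CPM) or the 12 acetate libraries (9.66 to 48.5 CPM). In whole brain Per1 was 2.24, 2.11 and 2.48 CPM in SPF and 9.15, 11.5, 13.5, 11.1 and 15.4 CPM in GF, a 5.38-fold difference without overlap. In the other tissues GF exceeded SPF 2.33-fold (cortex), 3.88-fold (wild-type hippocampus) and 4.36-fold (5xFAD hippocampus).

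**Figure D1:**
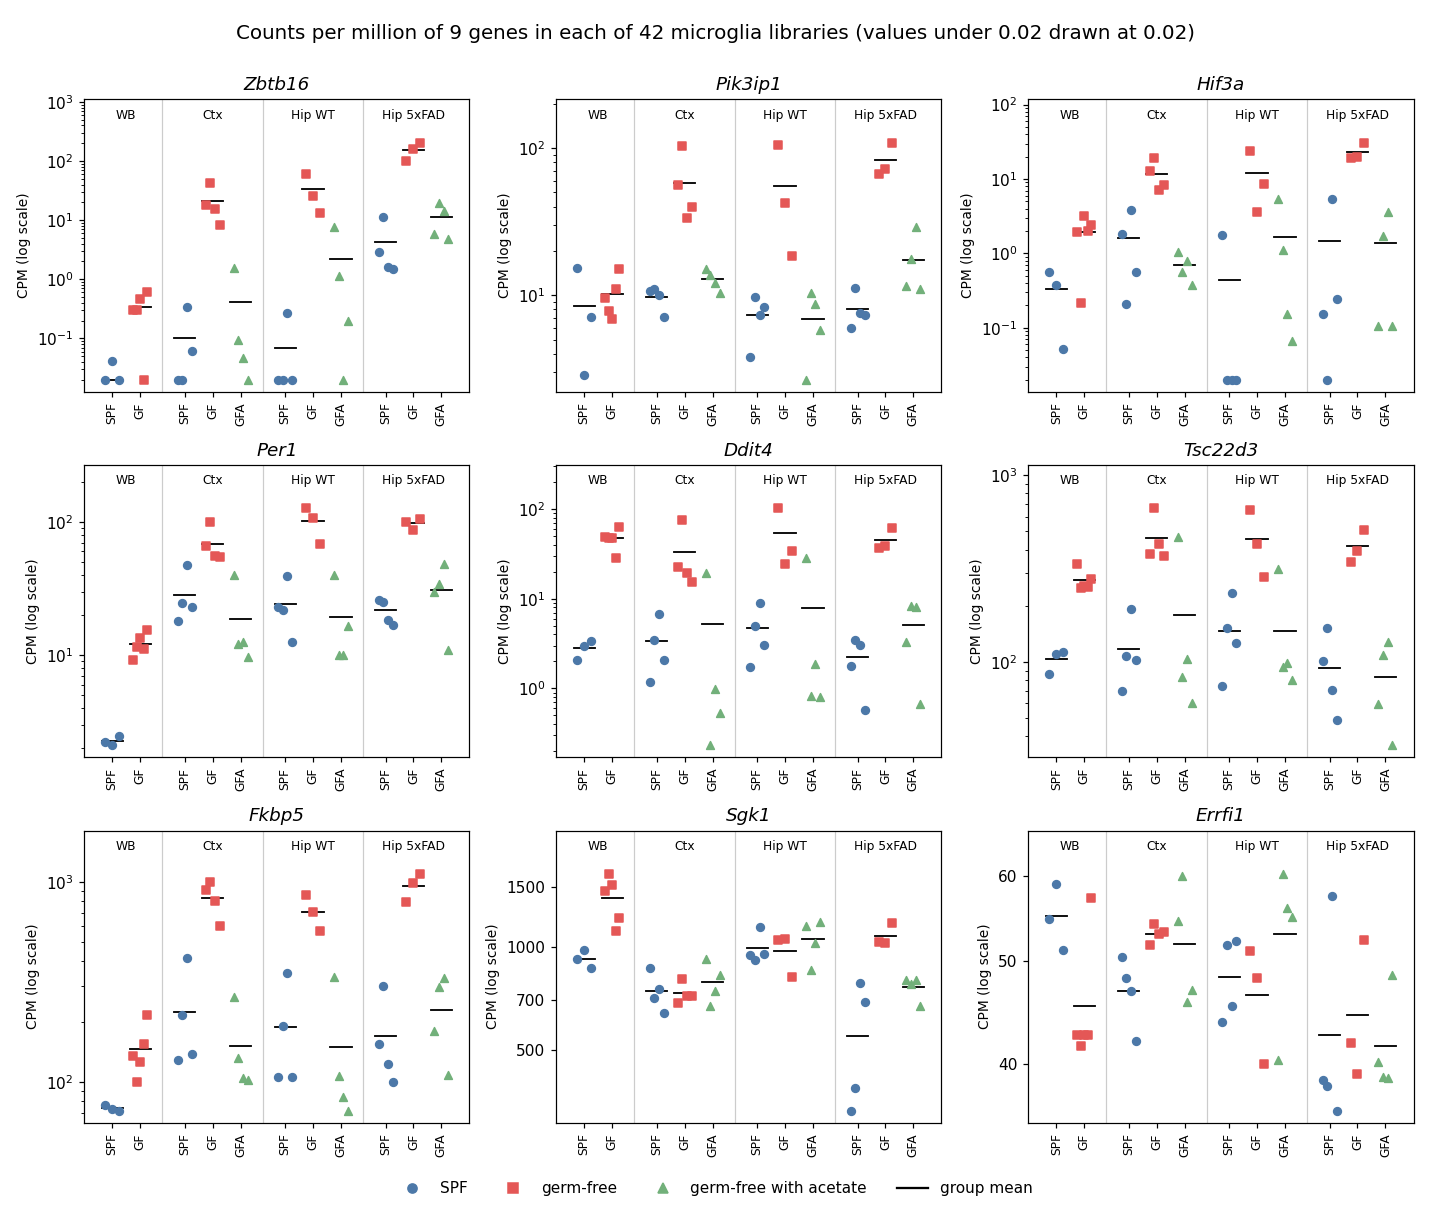
CPM (vertical, log scale, values under 0.02 drawn at 0.02) of each of the 9 genes in all 42 libraries; each point is a library, WB is whole brain, Ctx cortex, Hip hippocampus, GFA germ-free with acetate, and the bar is the group mean. Fkbp5 and Per1 have every cortex and hippocampus germ-free library above every other one of those tissues, while Errfi1 stays between 36.1 and 60.4 CPM there.

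Ddit4, or REDD1, restrains mTORC1 through the TSC complex (chromosome 10, 59949669 to 59951834) and ranged widely within groups. In cortex its level was 1.17, 3.48, 6.76 and 2.06 CPM in SPF, 22.8, 76.01, 19.6 and 15.2 CPM in GF and 19.3, 0.233, 0.987 and 0.531 CPM in acetate mice. Wild-type hippocampus had 1.72, 4.96, 8.93 and 3.07 CPM in SPF, 102, 24.7 and 33.9 CPM in GF and 28.1, 0.823, 1.85 and 0.797 CPM in acetate mice. GF529 led the germ-free mice in both regions, and GFA518 was inside the germ-free range in both while the other 3 acetate mice had at most 1.85 CPM. In 5xFAD hippocampus Ddit4 was 1.79, 3.48, 3.03 and 0.578 CPM in SPF, 36.99, 38.7 and 61.1 CPM in GF and 3.31, 8.22, 8.04 and 0.677 CPM in acetate mice, with no overlap of GF with either. In whole brain it was 2.05, 2.99 and 3.41 CPM in SPF and 48.9, 47.3, 46.99, 28.8 and 63.01 CPM in GF, the largest whole-brain difference of the 8 genes tested there (16.8-fold). GF exceeded SPF 9.47-fold in cortex, 10.6-fold in wild-type and 20.9-fold in 5xFAD hippocampus.

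Pik3ip1, a membrane protein that inhibits the PI3K catalytic subunit (chromosome 11, 3330401 to 3342971), differed between tissues. In cortex it was at 10.7, 11.02, 9.99 and 7.11 CPM in SPF, 55.8, 104, 33.2 and 39.9 CPM in GF and 15.1, 13.6, 12.1 and 10.4 CPM in acetate mice. In wild-type hippocampus it was at 3.801, 9.74, 7.36 and 8.36 CPM in SPF, 105, 42.02 and 18.5 CPM in GF and 2.67, 10.3, 8.71 and 5.84 CPM in acetate mice. Germ-free libraries were apart from both other groups in each region. GFA518, the highest acetate animal for Fkbp5, Tsc22d3, Per1 and Ddit4 in both regions, was the lowest for Pik3ip1 in hippocampus. In 5xFAD hippocampus Pik3ip1 was 5.9999, 11.1, 7.53 and 7.36 CPM in SPF, 66.5, 71.9 and 109 CPM in GF and 11.6, 17.7, 29.01 and 10.99 CPM in acetate mice. Whole brain had 15.2, 2.86 and 7.14 CPM in SPF and 9.53, 7.87, 6.899, 11.1 and 15.2 CPM in GF, and these overlapped (log2 0.28, SE 0.41). GF exceeded SPF 5.68-fold in cortex, 7.17-fold in wild-type and 10.1-fold in 5xFAD hippocampus.

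Hif3a, a hypoxia-inducible factor subunit of which several isoforms oppose Hif1a (chromosome 7, 17031507 to 17062427), was low but had the same order. In cortex it was at 1.7998, 0.2096, 3.87 and 0.561 CPM in SPF, 12.6, 18.98, 7.03 and 8.21 CPM in GF and 1.05, 0.558, 0.799 and 0.372 CPM in acetate mice. Wild-type hippocampus had 1.77, 0, 0 and 0 CPM in SPF, 23.9, 3.64 and 8.65 CPM in GF and 5.38, 1.097, 0.155 and 0.0664 CPM in acetate mice. Germ-free and SPF ranges were apart in both regions, and in hippocampus GFA518 lay above GF530. In 5xFAD hippocampus Hif3a was 0.154, 0, 5.39 and 0.241 CPM in SPF, 18.9, 20.003 and 30.9 CPM in GF and 0.107, 1.703, 3.56 and 0.104 CPM in acetate mice. In whole brain it was 0.5603, 0.379 and 0.0517 CPM in SPF and 1.92, 0.215, 3.19, 2.01 and 2.398 CPM in GF, where GF2 fell inside the SPF range.

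Sgk1, a kinase activated downstream of PI3K and mTORC2 that regulates ion transport partly through Nedd4l (chromosome 10, 21882184 to 21999903), was the most abundant per length. Per kilobase of exon, its median in cortex SPF was 149 CPM, against 24.2 CPM for Tsc22d3, 18.6 CPM for Fkbp5 and 0.00590 CPM for Zbtb16. In cortex its level was 867, 709, 756 and 639.7 CPM in SPF, 686, 808, 719 and 721 CPM in GF and 925, 671, 743 and 828 CPM in acetate mice. In wild-type hippocampus it was 949, 919, 1145 and 958 CPM in SPF, 1052, 1059 and 819 CPM in GF and 1155, 858, 1031 and 1184 CPM in acetate mice. The ranges of the 3 groups overlapped in both regions of wild-type mice. In 5xFAD hippocampus Sgk1 was 330.4, 385, 787 and 692 CPM in SPF, 1039, 1027 and 1182 CPM in GF and 802, 782, 802 and 672 CPM in acetate mice, and GF lay above both. Whole brain had 926, 982 and 872 CPM in SPF and 1466, 1646, 1519.9, 1114 and 1223 CPM in GF, 1.52-fold apart without overlap.

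Errfi1, or Mig6, a feedback inhibitor of the EGF receptor (chromosome 4, 150853919 to 150868892), hardly varied. Over cortex and hippocampus it was at 36.1 to 57.5 CPM in SPF, 39.1 to 54.1 CPM in GF and 38.8 to 60.4 CPM in acetate mice. In whole brain it was at 54.8, 59.1 and 51.2 CPM in SPF and 42.6, 41.6, 42.6, 42.6 and 57.3 CPM in GF, overlapping and slightly lower germ-free (log2 -0.26, SE 0.12). Cortex was the exception, with all 4 GF libraries (51.8 to 54.1 CPM) above all 4 SPF libraries (42.05 to 50.4 CPM), by log2 0.10.

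Ordered by group mean over the 9 cortex and hippocampus groups, the 3 germ-free groups took the first 3 places for Zbtb16, Pik3ip1, Hif3a, Per1, Ddit4, Tsc22d3 and Fkbp5. Among neighbours in that order, ranges were apart only between 5xFAD and wild-type hippocampus GF for Zbtb16, between cortex GF and wild-type hippocampus acetate for Hif3a, between cortex GF and 5xFAD acetate for Per1, and between wild-type hippocampus GF and 5xFAD acetate for Fkbp5. All other neighbours overlapped, so the order among the germ-free groups, and among the SPF and acetate groups, is mostly within the spread between animals. For Sgk1 the first place was 5xFAD GF and the last 5xFAD SPF. For Errfi1 the 9 means lay between 41.6 and 53.0 CPM, and all neighbours overlapped.

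A gene is called where edgeR's quasi-likelihood test gave an adjusted p under 0.05 over all genes tested. In whole brain, 5 of the 8 members tested were called higher in GF than SPF (Per1, Ddit4, Tsc22d3, Fkbp5 and Sgk1), beside 1.02% of all 11332 genes; the same 5 were the ones whose groups did not overlap, beside 5.17% of all genes. In cortex, 3 of 9 were called higher (Zbtb16, Pik3ip1 and Hif3a), beside 0.873%, and 8 were higher without overlap, beside 5.52%. In wild-type hippocampus, 3 of 9 were called higher (Zbtb16, Pik3ip1 and Per1), beside 0.328%, and 7 were higher without overlap, beside 7.41%. In 5xFAD hippocampus, 7 of 9 were called higher (all but Hif3a and Errfi1), beside 0.908%, and 8 were higher without overlap, beside 8.60%. Since the members were picked on these contrasts, the counts describe them and nothing is read from them. Median log2 differences of the tested members were 1.21, 1.91, 1.96 and 2.45 in that order, with medians over all genes of 0. Without GF529 the wild-type hippocampus count was 1, and without whole-brain SPF1 or SPF4 the whole-brain count was 3. In 5xFAD hippocampus the count was 4 without SPF2140, SPF2153, GF526 or GF527 and 3 without GF531, and in cortex it was 7 when only the SPF and GF groups were fitted.

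Acetate was compared with GF, in contrasts that use the same germ-free libraries as those above. In cortex 4 of 9 members were called lower (Zbtb16, Pik3ip1, Hif3a and Fkbp5), beside 0.523% of genes, and 5 were lower without overlap (also Per1), beside 6.29%. Acetate levels there were lower 4.32-fold for Pik3ip1, 15.8-fold for Hif3a, 3.50-fold for Per1, 5.21-fold for Fkbp5, 5.95-fold for Ddit4 and 2.46-fold for Tsc22d3. In wild-type hippocampus 2 of 9 were called lower (Pik3ip1, 7.61-fold, and Per1, 4.97-fold), beside 0.264%, and 4 were lower without overlap (also Zbtb16 and Fkbp5), beside 6.07%. In 5xFAD hippocampus 0 of 9 were called by edgeR, beside 0.0645% of genes called lower; 8 had an unadjusted p under 0.05, beside 1286 of all 17063 genes, DESeq2 called 2, beside 151 of all genes, and 8 were lower without overlap (all but Errfi1), beside 7.52%. As for GF against SPF, these counts describe genes picked on this contrast and nothing is read from them. Folds in 5xFAD were 13.3 for Zbtb16, 16.2 for Hif3a, 8.58 for Ddit4, 4.75 for Tsc22d3, 4.54 for Pik3ip1, 3.99 for Fkbp5 and 3.02 for Per1.

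The wild-type counts depend on single animals. Without GFA518 the cortex count rose from 4 to 7 and the hippocampus count from 2 to 6. Without GF529 the hippocampus count was 0, without GFA523, GFA524 or GFA525 it was 1, and without GF528, GFA523 or GFA524 the cortex count was 2. In 5xFAD hippocampus the count was 1 without GFA521 and 7 when only the acetate and GF groups were fitted.

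**Figure D2:**
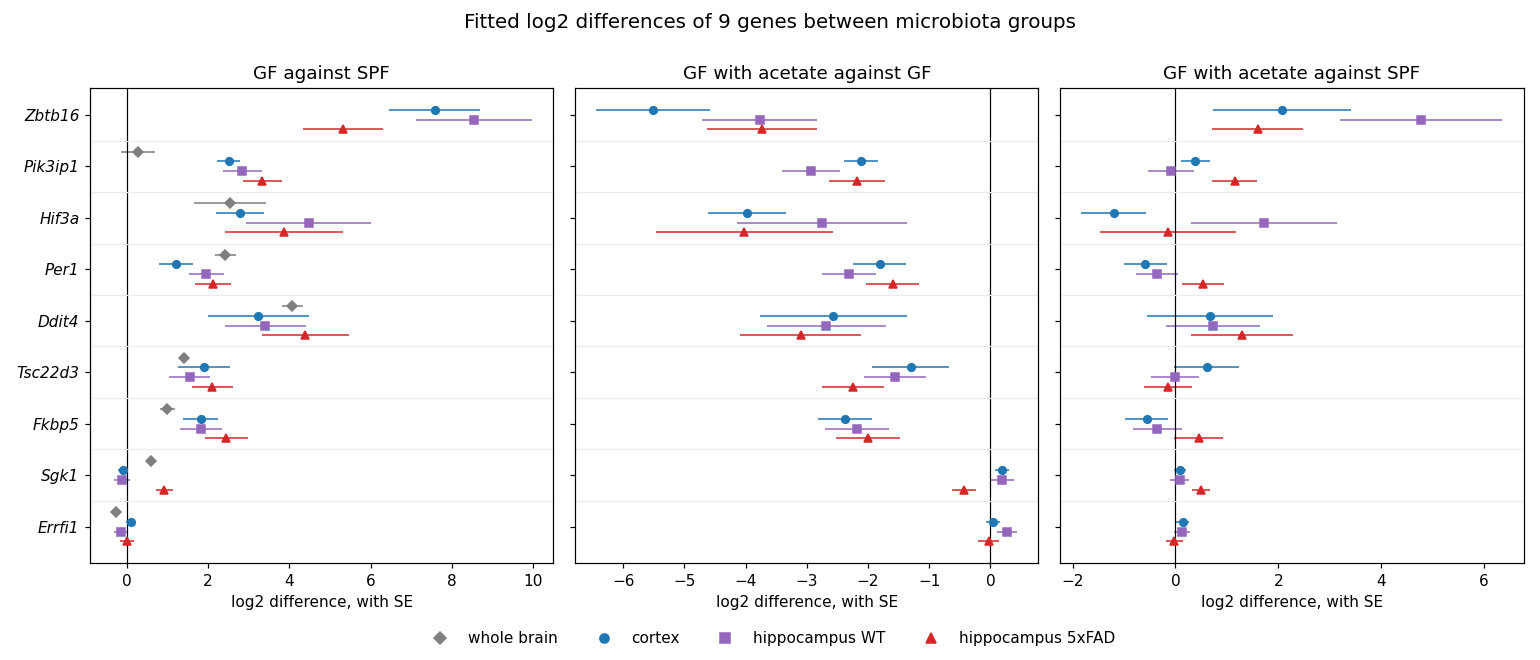
Fitted log2 differences (horizontal, with standard errors) of the 9 genes in 3 contrasts, with a symbol for each tissue and genotype; whole brain has no acetate group and Zbtb16 was not tested there. Zbtb16, Pik3ip1, Hif3a, Per1, Ddit4, Tsc22d3 and Fkbp5 lie right of 0 for GF against SPF and left of 0 for acetate against GF in cortex and hippocampus, while for acetate against SPF Zbtb16 and Ddit4 lie right of 0 in cortex and both genotypes of hippocampus and the other 5 on both sides. In wild-type mice GFA518 was the highest acetate library for both genes, with Ddit4 at 19.3 CPM in cortex and 28.1 CPM in hippocampus. The other acetate mice had 0.233, 0.987 and 0.531 CPM of Ddit4 in cortex, where SPF had 1.17 to 6.76 CPM. In hippocampus they had 0.823, 1.85 and 0.797 CPM, where SPF had 1.72 to 8.93 CPM.

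Whether acetate mice still differed from SPF mice is a contrast on which the members were not picked, though it shares its libraries with both contrasts above. In cortex 0 of 9 were called by edgeR (0.364% of all genes), with 0 at an unadjusted p under 0.05 and 0 by DESeq2. The members' log2 differences had a median of 0.14 and ran from -1.20 (Hif3a) to 2.07 (Zbtb16, adjusted p = 0.853), and no member's groups were apart, beside 4.36% of all genes in either direction. In wild-type hippocampus 0 of 9 were called (0.123% of all genes), with 1 at an unadjusted p under 0.05 and 0 by DESeq2, and the median was 0.08; no member was apart, beside 3.94%. The one was Zbtb16 (log2 4.78, SE 1.58, adjusted p = 0.414), with 0, 0, 5 and 0 counts in SPF and 164, 21, 0 and 3 counts in acetate mice. The 164 counts were those of GFA518, which also held 35 of the 38 Zbtb16 counts in acetate cortex. In 5xFAD hippocampus 0 of 9 were called (0.0527% of all genes), with 2 at an unadjusted p under 0.05 and 0 by DESeq2, and the median was 0.50; no member was apart, beside 4.87%. These 2 were Pik3ip1 (log2 1.15, SE 0.44, adjusted p = 0.546) and Sgk1 (log2 0.50, SE 0.18, adjusted p = 0.512), both higher with acetate. Zbtb16 and Hif3a were the least certain, with standard errors of 1.34 and 0.63 in cortex and 1.58 and 1.42 in wild-type hippocampus. A remaining difference in these genes could therefore be missed at these counts, and Zbtb16 at log2 4.78 was not called.

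The 5xFAD genotype was compared with wild type in hippocampus within each microbiota group, which the choice of members did not use. In SPF mice 1 of 9 members was called, beside 0.568% of genes in either direction: Sgk1 was lower in 5xFAD, at 330.4, 385, 787 and 692 CPM against 949, 919, 1145 and 958 CPM (log2 -0.86, SE 0.18, adjusted p = 0.0298). The 2 groups did not overlap, and SPF2140 and SPF2142 were the low libraries. These libraries also had the most Hsp90ab1 (1387 and 1299 CPM, against 416 and 647 CPM in SPF2152 and SPF2153), the most Hspa1b (291 and 169 CPM, against 17.9 and 65.6 CPM) and the least Fos (24.9 and 44.0 CPM, against 62.0 and 66.5 CPM); the part of these in the Sgk1 difference was not tested. Without both, the Sgk1 difference was log2 -0.45 and not called. It was also not called without SPF2140, without SPF2142 or without any single wild-type SPF library (log2 -0.69 to -0.90).

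Zbtb16 was higher in 5xFAD SPF than wild-type SPF in every library, 2.92, 11.3, 1.63 and 1.49 CPM against 0, 0, 0.271 and 0 CPM, without passing the threshold in edgeR (log2 5.47, SE 1.56, adjusted p = 0.139); DESeq2 called it. In GF mice 0 of 9 members were called by edgeR (0.756% of genes), with 1 at an unadjusted p under 0.05 and 0 by DESeq2. That one was again Zbtb16, apart between genotypes (log2 2.25, SE 0.94, adjusted p = 0.381). In acetate mice 0 of 9 were called by edgeR (2.51% of genes), with 3 at an unadjusted p under 0.05 and 1 by DESeq2. They were Zbtb16 (log2 2.29, SE 0.88, adjusted p = 0.216), Pik3ip1 (log2 1.35, SE 0.44, adjusted p = 0.117), which DESeq2 called, and Sgk1 (log2 -0.44, SE 0.18, adjusted p = 0.250). Pik3ip1 was apart and higher in 5xFAD, Sgk1 apart and lower. Without GFA518, 1 member was called.

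Whether genotype altered the contrasts was tested as an interaction. For GF against SPF, edgeR called 0 of 9 members and 0% of all 17063 genes, with 1 member and 942 genes at an unadjusted p under 0.05, while DESeq2 called 0 members and 15 genes. The member was Sgk1, whose GF difference was larger in 5xFAD by log2 1.04 (SE 0.28, unadjusted p = 0.00117, adjusted p = 0.568). For acetate against GF, edgeR again called 0 of 9 and 0% of genes, with 1 member and 905 genes at an unadjusted p under 0.05, and DESeq2 0 members and 7 genes. It was also Sgk1 (log2 -0.62, SE 0.28, adjusted p = 0.927).

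Hippocampus was compared with cortex in the 11 wild-type animals that gave both, with the animal as a block. In SPF mice 1 of 9 members was called, beside 0.603% of genes: Sgk1, at 949, 919, 1145 and 958 CPM in hippocampus and 867, 709, 756 and 639.7 CPM in cortex (log2 0.41, SE 0.09, adjusted p = 0.0492). It was higher in hippocampus in all 4 animals. In GF mice 0 of 9 were called by edgeR (0% of genes), with 3 members and 1926 genes at an unadjusted p under 0.05, while DESeq2 called 1 member; Sgk1 was at log2 0.34 (SE 0.10, adjusted p = 0.177). In acetate mice 2 of 9 were called, beside 2.17% of genes: Sgk1 (log2 0.37, SE 0.09, adjusted p = 0.0358) and Zbtb16 (log2 2.49, SE 0.55, adjusted p = 0.0376), both higher in hippocampus. Zbtb16 there was 7.54, 1.15, 0 and 0.199 CPM in hippocampus and 1.53, 0.09305, 0.04701 and 0 CPM in cortex, higher in 3 of 4 animals and on few counts. The SPF call was lost without SPF1, SPF2, SPF3 or SPF4, as were both acetate calls without GFA518, GFA523 or GFA525 and the Sgk1 call without GFA524. For Zbtb16, Pik3ip1, Hif3a, Per1, Ddit4, Tsc22d3 and Fkbp5 the GF mean was the highest of the 3 groups in both regions.

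The same animals were extreme for most members, which sets the spread within groups. GF529 was the highest germ-free library for 9 of 9 members in cortex and 8 of 9 in hippocampus, and GF531 for 9 of 9 in 5xFAD hippocampus. GFA518 was the highest acetate library for 8 of 9 members in cortex and 6 of 9 in hippocampus, and SPF3 the highest SPF library for 6 of 9 in both. Set against each other over the 11 animals, each value centred on its group mean, log2 CPM in hippocampus and cortex correlated at Pearson's r of 0.98 for Fkbp5 and Ddit4 and 0.95 for Tsc22d3 (Spearman's rho 0.96, 0.95 and 0.95). It was 0.88 for Zbtb16, 0.81 for Per1, 0.55 for Sgk1, 0.45 for Hif3a, 0.37 for Pik3ip1 and -0.16 for Errfi1. The 2 animals farthest from the median in cortex were then left out, a pair picked for each gene separately. Without its pair, r was 0.95 for Fkbp5, 0.94 for Ddit4, 0.88 for Tsc22d3 and 0.69 for Zbtb16. It was 0.36 for Per1 (without SPF3 and GFA518) and -0.02 for Pik3ip1 (without GF530 and GF529), so these 2 rest on those animals. Without their own pairs, r was higher for Hif3a (0.79) and Sgk1 (0.73), and -0.44 for Errfi1. The same r, computed for each of 15057 genes over the 11 animals, had a median of 0.13 and a 95th percentile of 0.70. Both regions of an animal share its sampling time and dissection, so these values describe animals and are given without p.

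**Figure D3:**
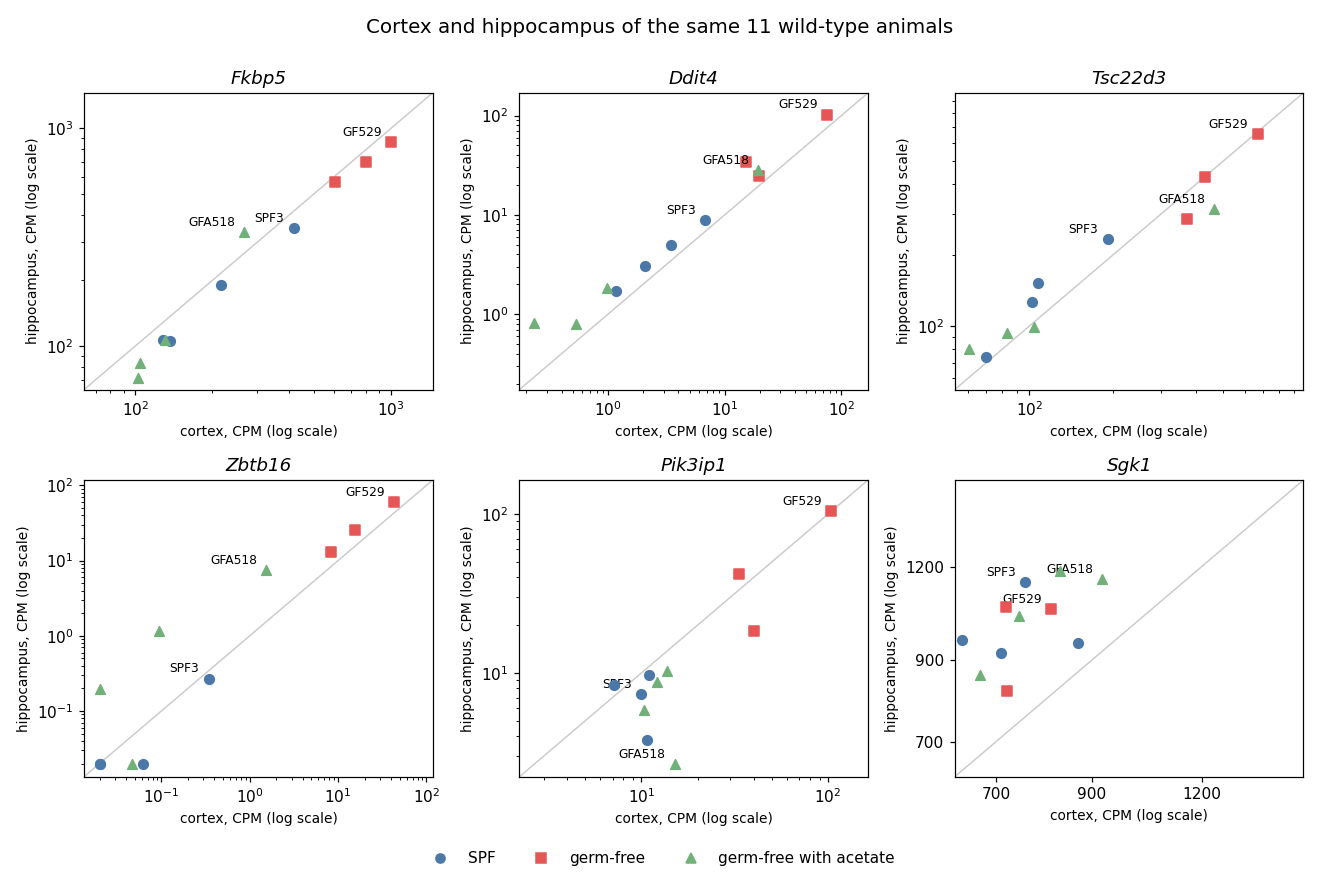
CPM in hippocampus (vertical) against cortex (horizontal), both on log scales, for 6 of the genes in 11 wild-type animals; each point is an animal, with values under 0.02 drawn at 0.02, and the line marks equal levels. For Fkbp5, Ddit4 and Tsc22d3 the animals keep nearly the same order in both regions, and Sgk1 lies above the line in most.

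Members also moved together within groups, and they fell into sets. With group means removed, the 6 pairs among Per1, Ddit4, Tsc22d3 and Fkbp5 had r of 0.79 to 0.97 in cortex (median 0.92 over 12 libraries, 0.84 without the 2 farthest) and 0.79 to 0.95 in hippocampus (median 0.85 over 22 libraries, 0.80 without the 2 farthest). Zbtb16 joined them, at 0.86 to 0.97 in cortex and 0.70 to 0.87 in hippocampus. Pik3ip1 and Hif3a, which share the group pattern, had lower r within groups: in hippocampus Pik3ip1 had r of 0.14 with Fkbp5 and 0.29 with Tsc22d3, and Hif3a 0.25 and 0.23. Without the 2 farthest libraries these were 0.44 and 0.57 for Pik3ip1 but 0.04 and 0.01 for Hif3a, so they depend on those libraries. Sgk1 pairs had a median of 0.10 in hippocampus and Errfi1 pairs of -0.32 (0.06 and -0.15 without the 2 farthest). In cortex these medians were 0.37 and 0.21 (0.01 and 0.08 without the 2 farthest). In whole brain they were -0.30 and 0.42 (-0.20 and -0.04 without the 2 farthest), so the sign for Errfi1 differed between tissues. In whole brain the 6 pairs among Per1, Ddit4, Tsc22d3 and Fkbp5 had r of -0.31 to 0.57 (median 0.28 over 8 libraries). Libraries share depth and preparation, so these are descriptions of the libraries.

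**Figure D4:**
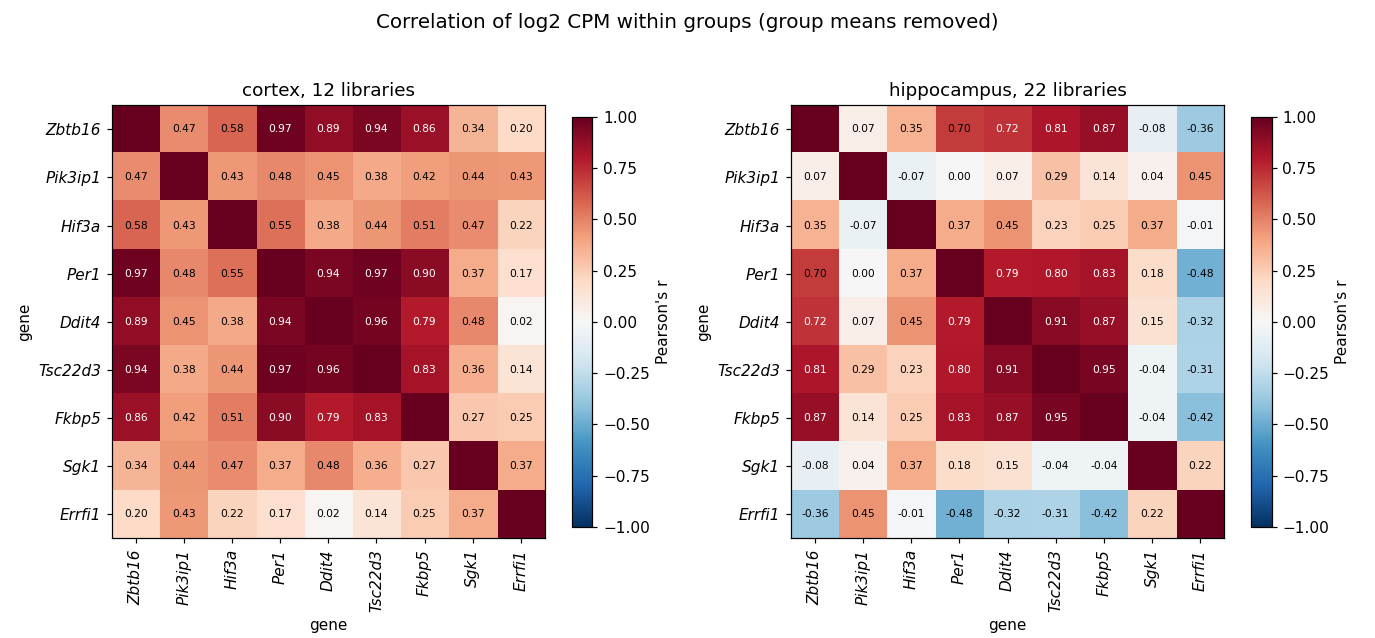
Pearson's r between the 9 genes' log2 CPM after removing group means, in 12 cortex and 22 hippocampus libraries; colour runs from -1 to 1. Zbtb16, Per1, Ddit4, Tsc22d3 and Fkbp5 form a block with r of 0.70 to 0.97 in both tissues, and Errfi1 lies outside it.

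The genes whose deviations were most like the mean of the 9 in hippocampus were looked for among 9573 others at 5 CPM or more. They were Lifr, the leukaemia inhibitory factor receptor (r = 0.89 over 22 libraries, 0.86 without the 2 farthest, 0.84 in 12 cortex libraries), and Slc1a3, a glutamate transporter (0.88, 0.82 and 0.76). Next came Tagap (0.85, 0.78 and 0.92), LTO1 (0.84, 0.79 and 0.63), Paox (0.80, 0.72 and 0.69), Mlxip (0.80, 0.76 and 0.91), Ccnd3, which encodes cyclin D3 (0.80, 0.76 and 0.81), and Nuak2 (0.80, 0.74 and 0.72). In the 8 whole-brain libraries r was lower, at 0.59 for Lifr, 0.37 for Slc1a3, 0.18 for Tagap and 0 for Paox. It was 0.62 for Mlxip, 0.40 for Ccnd3 and 0.37 for Nuak2 there, and LTO1 had no value. The median over all candidates in hippocampus was -0.01. Group differences were not used for this, yet the log2 differences of Lifr for GF against SPF were 0.81 in cortex, 0.98 in wild-type and 0.84 in 5xFAD hippocampus, and for acetate against GF -1.15, -1.15 and -1.14. LTO1 had no such pattern, with log2 0.23, -0.36 and 0.05 for GF against SPF.

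Slc1a3 is also one of 6 astrocyte markers used to check the sort. The summed astrocyte markers followed the member mean (r = 0.88 in hippocampus and 0.70 in cortex), but without Slc1a3 the sum of the other 5 did not (r = -0.05 and -0.26). Those 5 came to at most 9.16 CPM in any of the 42 libraries, against 191 to 492.8 CPM for Slc1a3. No other marker list had an r above 0.40 in cortex or hippocampus, where border macrophage markers reached 0.40 and 0.35 at no more than 34.9 CPM. In cortex pericyte and neuron markers went the other way (r = -0.63 and -0.60), at no more than 4.00 and 7.80 CPM, as did the number of genes detected (r = -0.60), while total counts rose with the member mean (r = 0.55 in cortex and 0.08 in hippocampus); their part in the members' spread was not tested.

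The receptor itself, Nr3c1, did not rise with its targets. It fell in whole-brain GF from 338 ± 14.97 CPM (SD, n = 3) to 270 ± 12.2 CPM (SD, n = 5; log2 -0.31, SE 0.06, edgeR adjusted p = 0.0151). In the other tissues GF was at log2 -0.40 (cortex, adjusted p = 0.112), -0.28 (wild-type hippocampus, adjusted p = 0.230) and -0.37 (5xFAD hippocampus, adjusted p = 0.0584) relative to SPF. Hsd11b1, which regenerates active hormone inside cells, was too low to be tested. Nr3c2, the mineralocorticoid receptor, Fkbp4, the co-chaperone that opposes Fkbp5, and Klf9 and Per2, both known receptor targets, were called in none of the contrasts where they were tested. Klf9, a transcription factor, nevertheless had the order of the members at low levels, with 1.65 ± 0.219 CPM in SPF, 4.73 ± 2.76 CPM in GF and 1.55 ± 0.459 CPM in acetate cortex (SD, n = 4 each). Its edgeR differences in cortex were log2 1.45 for GF against SPF (SE 0.39, adjusted p = 0.0735) and -1.54 for acetate against GF (SE 0.39, adjusted p = 0.0738). In wild-type hippocampus they were log2 0.78 (SE 0.87, adjusted p = 0.798) and -1.39 (SE 0.87, adjusted p = 0.563). In 5xFAD hippocampus they were log2 2.85 (SE 0.89, adjusted p = 0.119) and -2.14 (SE 0.87, adjusted p = 0.531), and in whole brain GF was at log2 -0.38 (SE 0.55, adjusted p = 0.813).

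List counts below are read beside the share of all genes called in either direction. For GF against SPF this was 1.99% in whole brain, 1.71% in cortex, 0.727% in wild-type and 1.82% in 5xFAD hippocampus, and for acetate against GF 0.973% in cortex, 0.492% in wild-type and 0.082% in 5xFAD hippocampus. Of 13 receptor chaperones, Hsp90ab1 (log2 0.46) and Hspa8 (log2 0.36) rose in whole-brain GF, while Hsp90ab1 (log2 -1.39) and Dnaja1 (log2 -1.09) fell in 5xFAD GF against SPF, where SPF2140 and SPF2142 were high. In cortex and wild-type hippocampus 0 of 13 were called for GF against SPF. Among 12 coregulators the single call was Ncoa1 in 5xFAD GF (log2 0.73). The 39 other glucocorticoid-induced genes had calls in both directions, and for GF 13.3% of those tested were called in whole brain, 6.90% in cortex, 3.12% in wild-type and 21.9% in 5xFAD hippocampus. In whole brain 2 of 30 tested rose in GF (Cebpb and Sult1a1) and 2 fell (Rgs2 and Txnip); in cortex 1 of 29 rose (Sult1a1) and 1 fell (Cdkn1a); in wild-type hippocampus 1 of 32 rose (Sult1a1) and 0 fell. In 5xFAD hippocampus 6 of 32 rose in GF, among them Dusp1 (log2 2.03), Rhob (log2 0.57) and Sult1a1 (log2 1.31), and 1 fell (Cdkn1a, log2 -1.70). The 5xFAD SPF reference was itself low for Dusp1 and Rhob, which were called lower there than in wild-type SPF mice (log2 -1.60 and -0.66). The medians of this list were -0.07, 0.09, 0.15 and 0.33, beside 0 over all genes.

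Sult1a1, a sulfotransferase, was the one gene of that list called in all 4 GF contrasts. Its level went from 131 ± 43.1 CPM in SPF to 320.3 ± 64.9 CPM in GF and 123 ± 47.3 CPM in acetate cortex (SD, n = 4 each), and acetate against GF was called there (log2 -1.30, SE 0.24, adjusted p = 0.0168). In hippocampus acetate lowered Rhob (log2 -0.53) and Nfkbia (log2 -0.91) against GF in wild-type mice, 2 of 32, and 0 of 32 in 5xFAD mice. In acetate against SPF the list had 1 call in cortex (Tgm2, log2 0.74) and 0 in either hippocampus. In 5xFAD against wild-type SPF, 0 of 32 were higher and 3 were lower (Rhob, Dusp1 and Sesn1), beside 0.568% of all genes called. Dusp1 was 32.2, 52.8, 61.1 and 92.9 CPM in 5xFAD and 87.2, 188, 260 and 188 CPM in wild-type SPF mice. SPF2140 and SPF2142 were the lowest, as for Sgk1, but SPF2152 was close to SPF2142. Between genotypes in GF mice, 0 of 32 genes of this list were called (0.756% of all genes). In acetate mice 1 of 32 was higher in 5xFAD (Mt1, log2 1.09). Lower there were 3 (Txnip, log2 -0.44, Tgm2, log2 -0.69, and Sesn1, log2 -0.50), beside 2.51% of all genes called in either direction.

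In the PI3K, AKT and mTORC1 list, Pik3r1, the regulatory subunit of PI3K, rose in GF in cortex (log2 0.47), wild-type (log2 0.70) and 5xFAD hippocampus (log2 0.61), and fell with acetate against GF in all 3 (log2 -0.40, -0.56 and -0.67). In cortex its level was 247 ± 11.3 CPM in SPF, 359 ± 22.2 CPM in GF and 259 ± 23.5 CPM in acetate mice (SD, n = 4 each). Calls for GF, beside the shares of all genes given above, were 2 of 28 (7.14%) in cortex (with Rptor lower), 1 of 29 (3.45%) in wild-type and 3 of 29 (10.3%) in 5xFAD hippocampus (with Nedd4l, a ubiquitin ligase that Sgk1 phosphorylates, log2 1.38, and Deptor, an mTOR inhibitor, log2 1.07), and 0 of 28 in whole brain. Of the hypoxia list, P4ha1, a collagen prolyl hydroxylase, fell in GF in cortex (log2 -0.90) and 5xFAD hippocampus (log2 -1.15) and rose with acetate in cortex (log2 0.64), and Vhl, which targets Hif1a for degradation, rose with acetate in wild-type hippocampus (log2 0.72), each the one call of 19 tested (5.26%). Between genotypes, 3 of 19 (15.8%, beside 2.51% of all genes) were higher in 5xFAD than wild-type acetate mice (Hif1a, log2 1.19, Egln3, log2 3.80, and Bhlhe40, log2 4.53), where Hif3a itself was at log2 -0.29. Bhlhe40 was also higher in 5xFAD than wild-type SPF mice (log2 4.30), as 1 of 19 (5.26%, beside 0.568% of all genes). In GF mice 0 of 19 were called between genotypes (0.756% of all genes). The EGF receptor list, the pathway of Errfi1, had 0 calls in any contrast of microbiota.

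Genes known to be lowered by glucocorticoids had calls in both directions. Their median log2 difference for GF against SPF was -0.17 in whole brain, 0.46 in cortex, -0.07 in wild-type and -0.94 in 5xFAD hippocampus, and for acetate against GF it was -0.11 in cortex, 0.01 in wild-type and 0.67 in 5xFAD hippocampus, beside -0.01 to 0.01 over all genes. In 5xFAD against wild-type SPF mice the median was 0.81, with 0 of 13 called (0.568% of all genes). In GF mice the median between genotypes was -0.25, with 0 of 13 called (0.756% of all genes). In acetate mice it was 0.24, with 2 of 13 higher in 5xFAD (15.4%, beside 2.51% of all genes), Ccl3 (log2 2.14) and Ccl4 (log2 1.57). Of 13 tested in whole-brain GF, 2 fell (Tlr2, log2 -0.35, and Il1a, log2 -0.55) and 2 chemokine genes rose (Ccl4, log2 1.43, and Ccl3, log2 1.35). Tlr2 (log2 -0.58) and Icam1 (log2 -0.45) fell in cortex GF, Icam1 fell in 5xFAD GF (log2 -0.94), and 0 of 13 were called in wild-type hippocampus GF. With acetate against GF in cortex Icam1 rose (log2 0.54) and Vcam1 (log2 -1.29) and Ccl3 (log2 -1.03) fell. Immediate-early genes, which also report on handling of the cells, moved in the same contrasts: Egr1 (log2 2.17) and Nr4a1 (log2 2.03) in whole brain, Nr4a1 and Klf6 (3.48-fold and 1.35-fold) in cortex, Klf2 (log2 1.78) in wild-type and Ier2, Fos and Klf4 (log2 1.57, 1.82 and 3.11) in 5xFAD hippocampus rose in GF, and Klf4 (log2 -2.75) and Nr4a1 (log2 -1.59) fell with acetate in cortex. Ier5 (log2 -0.59) fell in whole-brain GF, and Hspa1b fell in 5xFAD GF, where SPF2140 and SPF2142 were high. The 5xFAD SPF reference was itself low for some of these genes. Against wild-type SPF, 4 of 22 were lower (18.2%, beside 0.568% of all genes), among them Fosb (log2 -2.67), Junb (log2 -1.04) and Fos (log2 -1.80). Fos was 24.9, 44.0, 62.0 and 66.5 CPM in 5xFAD SPF and 78.2, 181, 257 and 171 CPM in wild-type SPF mice. Higher in GF were 2 of 19 tested in whole brain, 2 of 21 in cortex, 1 of 22 in wild-type and 3 of 22 in 5xFAD hippocampus; with the lower ones, 15.8%, 9.52%, 4.55% and 18.2% of the list were called, beside the shares of all genes given above, and the part of these genes in the members' differences was not tested.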

How the data were processed

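The deposited values are whole-number counts per gene, made by the authors with STAR 2.5.2b and featureCounts 1.5.1 per the submitters' processing notes. These name the human build GRCh38, while the symbols are those of mouse, so positions and promoters come from GRCm38 annotation by symbol. Every column is a sample (0 left out), and separate animals are the replicates per the labels. The 9 genes and all gene lists were chosen with earlier results of these data known.

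Counts were fitted with edgeR 4.0.16 (limma 3.58.1, R 4.3.3): genes passing filterByExpr (minimum count 10), TMM scaling, robust quasi-likelihood tests, two-sided, Benjamini-Hochberg adjustment over all genes tested, threshold 0.05. Whole brain, cortex (3 groups), hippocampus (6 groups) and the regions were fitted separately. Folds are 2 to the fitted log2 difference, which is computed here, as is log2 CPM (prior count 2) for correlations. DESeq2 1.42.0, RLE scaling, other filters (none, a mean of 5 CPM), fits of only the groups compared, and fits without single libraries or named pairs were alternatives; those without GFA518 alone and without SPF2140 and SPF2142 were chosen after seeing the data. The fits were tested on simulated data with known changes.

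The animal is a block between regions because cortex and hippocampus carry the same animal numbers per the labels (residual r across genes 0.018 to 0.125). Named are all 9 genes, Nr3c1, Nr3c2, Hsd11b1, Klf9, Per2 and Fkbp4, the called genes of each list (up to 3 a direction by p), and the 8 genes most like the mean of the 9; Fos, Dusp1, Hsp90ab1 and Hspa1b values in single libraries were added after they were seen. Sums over marker lists are CPM. Isoforms and transgene sequences were not analysed here.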

Additional observations from a re-analysis of the deposited data

Results flagged for a closer look

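Groups of 4 or 5 libraries were examined for each member's level (groups of 3 were not). Of these 72 groups, 17 held a library far from the rest. The nominal chance rate of about 1 in 20 cannot be set against this count. The same libraries recur for every member, several members moved together within groups, and some groups held few counts. The flags are therefore a description only. In 8 of the 17 the library was the acetate animal GFA518, which was high. In cortex it had 1.53 CPM of Zbtb16, 40.1 CPM of Per1, 19.3 CPM of Ddit4 and 464 CPM of Tsc22d3. In hippocampus it had 7.54 CPM of Zbtb16, 28.1 CPM of Ddit4, 313 CPM of Tsc22d3 and 333 CPM of Fkbp5. Its hippocampus library also had the fewest genes detected in that tissue (16607), and its cortex library is a separate one.

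Cortex GF529 stood above the other germ-free mice in Ddit4 at 76.0 CPM. In wild-type hippocampus SPF3 had 0.271 CPM of Zbtb16 and SPF1 1.77 CPM of Hif3a, with 0 in the other 3 SPF libraries of each gene. In 5xFAD SPF, SPF2142 had 11.3 CPM of Zbtb16, and SPF2152 had 5.39 CPM of Hif3a and 57.5 CPM of Errfi1. In 5xFAD acetate, GFA522 was low in Sgk1 at 672 CPM and high in Errfi1 at 48.5 CPM. In whole brain GF5 was high in Errfi1 at 57.3 CPM.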

How the results depend on the processing

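No log2 difference of a member that was called changed sign under any alternative, and 2223 of the alternative values for single members and their covariation stayed within 1 SE (contrasts used to pick the members), kept their side of the threshold (the other contrasts) or moved by less than 0.2 (median r). In the former, or by an uncalled change of sign, 153 moved; in the contrasts not used to pick them, 14 gained and 27 lost a call. Counts of members called that moved by over 1.5 times were as follows. Fitting only the groups compared gave 7 for cortex GF against SPF, 0 for wild-type hippocampus acetate against GF, 7 for 5xFAD acetate against GF and 0 for 5xFAD against wild type in SPF mice. With no filter on low counts there were 2 for cortex acetate against GF, 1 for wild-type hippocampus acetate against GF, 3 for 5xFAD GF against SPF, 0 for 5xFAD against wild type in SPF mice and 2 between regions in SPF mice; a filter at a mean of 5 CPM gave 1 for 5xFAD acetate against GF. DESeq2 gave 2 for 5xFAD acetate against GF, 2 for 5xFAD against wild type in SPF mice, 1 in acetate mice, and 1 between regions in GF mice. Over all genes DESeq2 called more than edgeR in each comparison, for example 151 against 14 for 5xFAD acetate against GF.

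Without GF530 and GFA518 counts were 5 for wild-type hippocampus and 3 for 5xFAD acetate against GF, 1 for 5xFAD against wild type in acetate mice and 1 between regions in acetate mice. Without the shallow SPF4 and SPF2142 they were 4 for wild-type hippocampus acetate against GF, 0 for 5xFAD against wild type in SPF mice and 0 between regions in SPF mice. Without SPF2152 and SPF2153 they were 2 for 5xFAD GF against SPF, 1 for 5xFAD acetate against SPF, 2 for 5xFAD against wild type in SPF mice, 1 in acetate mice and 1 for the interaction with GF. Without SPF2140 and SPF2142, chosen after seeing the data, they were 2 for 5xFAD GF against SPF and 0 for 5xFAD against wild type in SPF mice; without GFA518, also chosen then, 6 for wild-type hippocampus acetate against GF and 1 for 5xFAD against wild type in acetate mice.

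Leaving out each replicate in turn gave 3 to 5 in whole brain, 2 to 4 for cortex GF, 2 to 7 for cortex acetate against GF, 1 to 3 and 0 to 6 for the same in wild-type hippocampus, 3 to 6 and 0 to 1 in 5xFAD, 0 to 1 for 5xFAD against wild type in SPF and in acetate mice, and between regions 0 in SPF and 0 to 1 in acetate mice; the remaining comparisons stayed at 0. Without the replicate block the region comparisons had 0 calls in SPF and 0 in acetate mice. In whole brain the replicate block left the count at 5; same-numbered mice there did not deviate together (r -0.037 to -0.003), so the numbers do not pair them. The cause of these shifts was not tested. Few or no counts in wild-type SPF libraries limit what could be detected for Zbtb16 and Hif3a.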
